A study of Mus musculus with 6 samples.

Results

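Trithorax group genes counteract polycomb silencing, and 8 of them were followed here in blood stem cells labelled wild type or Mel18 knockout: Kmt2a, Kmt2c, Kmt2d, Kdm6b, Men1, Ash2l, Wdr5 and Rbbp5. They were chosen by gene symbol from a deposited table of 13935 genes. All 8 were found, and all 8 passed the filter on low counts with 12603 of the listed genes. The study asked whether Mel18, a polycomb protein encoded by Pcgf2, alters transcription in mouse hematopoietic stem cells. RNA was sequenced from bone marrow cells of 3 wild-type mice (replicates 1 to 3) and 3 mice with the knockout in the blood system (replicates 4 to 6). By the labels these were hematopoietic stem and progenitor cells. Both the series title and the header of the deposited table speak of long-term hematopoietic stem cells instead. The header of the deposited table calls its comparison Cre+ against Cre-, so that where Cre+ stands for the knockout libraries, carrying the Cre recombinase and losing Mel18 cannot be told apart. The sources used here do not state the promoter driving Cre, the exons removed, the strain, the age of the mice or any pooling of animals.

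Polycomb and trithorax proteins hold genes in opposite states. Polycomb repressive complexes methylate histone H3 at lysine 27 and ubiquitinate histone H2A, and both marks accompany silencing. Trithorax complexes of the COMPASS family methylate histone H3 at lysine 4, the mark of promoters and enhancers in use. Kmt2a (also called MLL1), Kmt2c and Kmt2d are catalytic subunits of such complexes, Ash2l, Wdr5 and Rbbp5 form their shared core, Men1 encodes menin, which tethers Kmt2a to chromatin, and Kdm6b removes methyl groups from lysine 27. In blood stem cells Kmt2a is known to keep Hox genes and Meis1 in expression.

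Total counts ranged from 26469336 to 30950057 in the wild-type libraries and from 33537679 to 37180701 in those labelled knockout. Levels are given in CPM, where library sizes were adjusted by TMM, a normalization that trims extreme genes. Errors are SDs over 3 libraries, and p-values measure only the spread between libraries, each labelled as 1 mouse. Pcgf2 itself was covered by 43, 68 and 54 counts in wild type and by 72, 72 and 107 counts under the knockout label (log2 fold change 0.30, SE 1.14, adjusted p = 0.952, quasi-likelihood test of edgeR). Since this does not separate the groups, and a whole-gene count is blind to single deleted exons, the knockout libraries are named by their labels throughout. Replicate 6 stood apart from the rest: its log2 CPM correlated across genes at 0.770 to 0.813 with the other libraries, which correlated at 0.811 to 0.887 among themselves. Its label also ends in S37, outside the run of S6 to S10 that the other libraries carry. The labels do not say what these numbers stand for, and their part in the values of replicate 6 was not tested. All 17 listed markers of long-term stem cells were fitted higher in the knockout-labelled libraries (summed level 1219 to 2635 CPM in wild type, 2989 to 4769 CPM in knockout). For 7 of the 17 the groups did not overlap, beside 10.1% of all tested genes separated in that direction. Of the 15 measured markers of lineage-primed progenitors 14 were fitted lower (6498 to 15256 CPM against 717 to 1988 CPM), 9 of them without overlap of the groups, beside 11.3% of all tested genes. None of these markers was at 0 in a whole group. Of 21 measured markers of mature blood cells, the summed level was 1236 to 2962 CPM against 1698 to 2433 CPM. Of the 17 tested, 7 were fitted higher and 10 lower (median log2 fold change -0.47). Groups did not overlap for 4 lower and 1 higher, beside 11.3% and 10.1% of all tested genes. The T-cell markers Cd4 and Cd8a had 0 counts in all knockout-labelled libraries and in 1 and 2 of the wild-type libraries, while Cd3e and Cd3g had 11 and 10 counts in 1 knockout-labelled library each.

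None of the 8 trithorax genes passed the test between the labelled genotypes. In the quasi-likelihood test of edgeR, adjusted by Benjamini-Hochberg over all 12603 genes with a threshold of 0.05, the adjusted p-values lay between 0.451 (Ash2l) and 0.990 (Rbbp5). Among all genes tested 0.143% passed. No member reached an unadjusted p below 0.05 either, against 11.9% of all genes. DESeq2, limma-voom and edgeR's likelihood ratio test called 0 of the 8 as well, and 0 had an unadjusted p below 0.05 in those tests. Of all genes DESeq2 called 4.4%, the likelihood ratio test 3.43% and limma-voom 0 (1775 at an unadjusted p below 0.05). The groups of Ash2l and Wdr5 did not overlap, both being lower in every knockout-labelled library than in any wild-type library, while 11.3% of all tested genes were separated in that direction and 10.1% in the other. Of the 8 members 4 were fitted higher and 4 lower, with a median log2 fold change of -0.10 beside -0.01 over all tested genes.

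**Figure D1:**
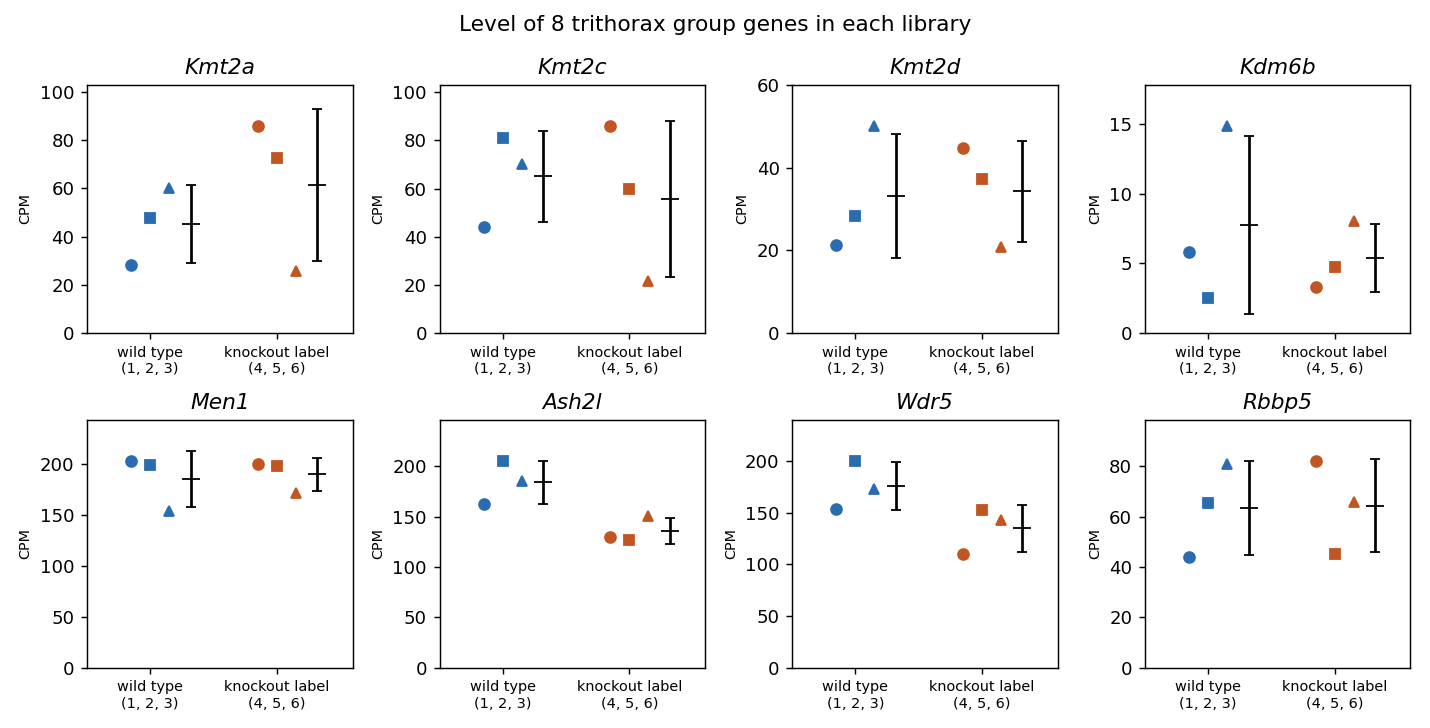
Level of each gene in CPM (vertical axes, each starting at 0) in the 3 wild-type libraries (blue) and the 3 libraries labelled knockout (orange), with circles, squares and triangles for the replicates in numerical order and black bars for mean and SD. Ash2l and Wdr5 are the genes whose groups do not overlap, and Kmt2a, Kmt2c and Kmt2d are low in knockout-labelled replicate 6.

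Compared per length, as CPM per kb of annotated exon, the level was highest for Men1 and lowest for Kdm6b. Men1 ranged from 50.6 to 66.7 CPM per kb over the 6 libraries, Wdr5 from 37.8 to 69.0 and Ash2l from 36.2 to 58.6. These neighbours in the order overlapped, although Men1 ranked first in 4 of 6 libraries and Wdr5 in the other two. Rbbp5, at 12.1 to 22.6 CPM per kb, ranked just below them in all 6 libraries and overlapped neither Ash2l above nor Kmt2c below. In every library Men1 and the 3 core subunits had more RNA per length than Kmt2a, Kmt2c, Kmt2d and Kdm6b. Kmt2c ranged from 1.28 to 5.10 CPM per kb, Kmt2a from 1.57 to 5.21, Kmt2d from 1.05 to 2.53 and Kdm6b from 0.375 to 2.23, and each overlapped its neighbour. The order of Kmt2c and Kmt2a was not the same in the groups: Kmt2c stood above Kmt2a in all 3 wild-type libraries and below it in all 3 knockout-labelled libraries. The ratio of this pair, given further below, was picked out of 28 pairs after its values were seen. It did not pass a test. The transcripts compared differ widely in length, up to 19.8 kb for Kmt2d, and how evenly the amplified cDNA covered them cannot be read from 1 count per gene.

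**Figure D2:**
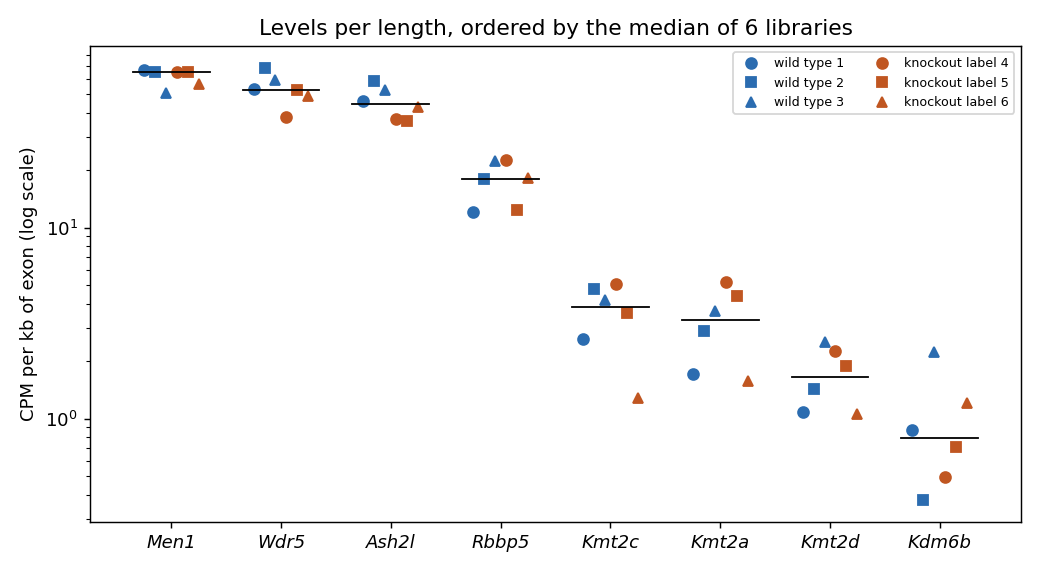
CPM per kb of exon (log scale) of the 8 genes, ordered from left to right by their median over 6 libraries (black bars), with wild-type libraries in blue and knockout-labelled libraries in orange. Men1, Wdr5 and Ash2l lie between 36.2 and 69.0, Rbbp5 between 12.1 and 22.6, and the other 4 genes at or below 5.21.

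Kmt2a, Kmt2c and Kmt2d encode very large methyltransferases, with Kmt2a acting mainly at promoters of developmental genes and Kmt2c and Kmt2d at enhancers. Kmt2a lies on mm10 chromosome 9 (44803355 to 44881274, minus strand) and has 36 exons spanning 16.4 kb after merging. Kmt2c lies on chromosome 5 (25271794 to 25498783, minus strand) with 59 exons and 16.8 kb, and Kmt2d on chromosome 15 (98831669 to 98871205, minus strand) with 55 exons and 19.8 kb. The 250 bases before the start of each of these genes are printed below because their levels varied together and because the CXXC domain of the Kmt2a protein binds unmethylated CG dinucleotides. Wdr5, a core subunit with a short transcript, is set beside them. Sequences are from RefSeq on GRCm38.p6, which is mm10, read 5′ to 3′ on the strand of the gene, with CG dinucleotides in capitals.
Kmt2a: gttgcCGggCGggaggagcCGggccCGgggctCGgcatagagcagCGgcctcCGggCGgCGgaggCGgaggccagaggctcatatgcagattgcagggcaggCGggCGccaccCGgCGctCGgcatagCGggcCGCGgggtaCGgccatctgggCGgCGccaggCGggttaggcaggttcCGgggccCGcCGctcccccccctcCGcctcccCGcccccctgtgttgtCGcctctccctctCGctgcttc
Kmt2c: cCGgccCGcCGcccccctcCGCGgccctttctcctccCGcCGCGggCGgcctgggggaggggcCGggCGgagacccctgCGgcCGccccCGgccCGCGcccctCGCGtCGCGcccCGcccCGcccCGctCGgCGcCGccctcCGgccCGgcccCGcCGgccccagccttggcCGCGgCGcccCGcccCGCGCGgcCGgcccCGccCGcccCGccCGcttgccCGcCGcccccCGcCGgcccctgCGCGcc
Kmt2d: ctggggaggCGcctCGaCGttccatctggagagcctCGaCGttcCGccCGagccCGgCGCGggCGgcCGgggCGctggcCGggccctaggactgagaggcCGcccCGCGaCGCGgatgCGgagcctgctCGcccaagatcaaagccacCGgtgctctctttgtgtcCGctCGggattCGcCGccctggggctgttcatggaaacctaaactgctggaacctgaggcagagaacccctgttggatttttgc
Wdr5: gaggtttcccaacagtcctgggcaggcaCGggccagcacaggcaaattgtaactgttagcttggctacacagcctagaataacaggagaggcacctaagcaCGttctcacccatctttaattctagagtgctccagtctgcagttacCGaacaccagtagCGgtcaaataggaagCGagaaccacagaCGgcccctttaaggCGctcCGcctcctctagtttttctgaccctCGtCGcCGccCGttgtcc
The windows are chr9:44881290-44881539 for Kmt2a, chr5:25498784-25499033 for Kmt2c, chr15:98871206-98871455 for Kmt2d and chr2:27514897-27515146 for Wdr5. They held 29, 48, 26 and 12 CG dinucleotides, in that order. The median over the first listed window of 27025 genes was 6, and Kmt2c held more than 99.8% of these windows. The Kmt2a window begins at 44881290, a few bases beyond the gene end of 44881274 given above. For Wdr5 the 15 bases after the RefSeq start were found in 0 of 4 GENCODE transcripts.

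Windows of 300 bases, which add 50 bases after the start, were at hand for 6 of the 8 genes, Kdm6b and Ash2l having no entry. The GC box GGGCGG, searched on both strands, occurred in the first window of Kmt2a, Kmt2c, Kmt2d, Men1 and Wdr5 (5 of 6) and in 35.9% of all genes' windows. The TATA box TATAAA occurred in 0 of 6 windows and in 14.2% of all. CCAAT was found in Men1 alone (37.9% of all windows) and the ETS core CCGGAA in Kmt2a alone (15.2% of all). Neither the E2F-type motif GCGGGAA nor the cell cycle element TTTGAA was found in any of the 6 windows, against 4.66% and 18.1% of all.

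Kmt2a levels were 28.2, 47.5 and 60.2 CPM in wild-type replicates 1 to 3 and 85.7, 72.6 and 25.8 CPM in knockout-labelled replicates 4 to 6. Replicates 4 and 5 lay above every wild-type library and replicate 6 below all of them. The means were 45.3 ± 16.1 and 61.3 ± 31.5 CPM over 3 libraries each, a log2 fold change of 0.44 (SE 0.48, 95% interval -0.66 to 1.54). Single libraries moved this value in both directions. Without knockout-labelled replicate 4 it was 0.12, without replicate 5 0.30 and without wild-type replicate 1 0.19. Without wild-type replicate 3 it was 0.69, and without knockout-labelled replicate 6 it was 0.80 (95% interval -0.01 to 1.62), with adjusted p = 0.398 by edgeR.

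For Kmt2c, the wild-type libraries gave 44.2, 80.8 and 70.1 CPM and the knockout-labelled libraries 85.8, 59.9 and 21.6 CPM. The highest and the lowest library were both labelled knockout, with a 3.98-fold span between them. The log2 fold change was -0.22 (SE 0.49, 95% interval -1.34 to 0.89), and it was 0.16 without replicate 6 and -0.67 without replicate 4.

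Kmt2d was measured at 21.4, 28.3 and 50.1 CPM in wild type and at 44.7, 37.3 and 20.9 CPM under the knockout label. The groups covered almost the same range. The log2 fold change was 0.05 (SE 0.44, 95% interval -0.97 to 1.06), and its sign changed when wild-type replicate 1 or 2 or knockout-labelled replicate 4 or 5 was left out (-0.19 to 0.45 over the 6 omissions).

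These 3 methyltransferase genes shared their low libraries, knockout-labelled replicate 6 and wild-type replicate 1. Long transcripts as a class did so too. For 218 tested genes with at least 10 kb of exon, the median deviation of log2 CPM from the gene's own mean was -0.99 in replicate 6 and -0.12 in wild-type replicate 1, and between 0.27 and 0.59 in the other 4 libraries. Genes of this class made up 0.349% of CPM in replicate 6 and 0.621% to 0.862% in the other libraries. For genes of 2 to 4 kb, the medians of the 6 libraries lay between -0.03 and 0.13. The median log2 fold change of the long class was -0.14 with all libraries and 0.17 without replicate 6.

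**Figure D3:**
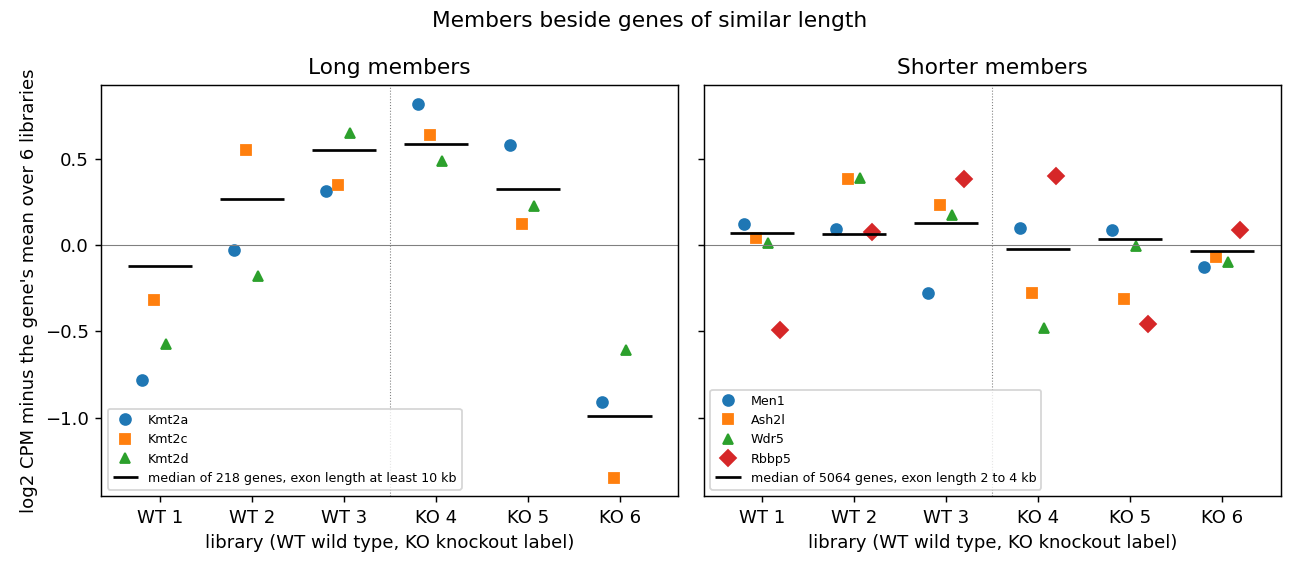
Deviation of log2 CPM from the gene's mean over the 6 libraries (vertical axis). The long methyltransferase genes are on the left and the 4 members of at most 3.63 kb on the right. Black bars mark each library's median of all tested genes with at least 10 kb of exon (left) or 2 to 4 kb (right). In replicate 6 the long class stands at -0.99 and Kmt2a, Kmt2c and Kmt2d at -0.91, -1.35 and -0.61.

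An added fit removed each library's trend on exon length by a smooth curve, which moved the median log2 fold change of all genes from -0.01 to 0.18. Relative to that median, Kmt2a had a log2 fold change of 0.73, Kmt2d 0.58 and Kmt2c -0.01. The test itself is of the values before this subtraction, 0.91 for Kmt2a (SE 0.26), 0.76 for Kmt2d and 0.17 for Kmt2c. In it Kmt2a was the only member with an unadjusted p below 0.05 (unadjusted value 0.00696, adjusted p = 0.196 by edgeR), a threshold that 12.8% of all genes passed. In wild-type replicate 1 Kmt2a deviated by -0.78, Kmt2d by -0.57 and Kmt2c by -0.32, each further than the -0.12 of the long class. The curve removed in the added fit went further down than the long class at the exon lengths of these genes. In replicate 6 it stood at -1.62 for Kmt2a, -1.64 for Kmt2c and -1.74 for Kmt2d, where the long class had -0.99. In wild-type replicate 1 it stood at -0.26, -0.26 and -0.28.

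Library depth cancels in the ratio of Kmt2a to Kmt2c, as it does for any pair of genes. Their exon lengths are nearly equal, at 16.4 and 16.8 kb, but how evenly each was covered is not known. Kmt2a per kb was 0.652, 0.601 and 0.878 times Kmt2c in wild-type replicates 1 to 3 and 1.02, 1.24 and 1.22 times Kmt2c in knockout-labelled replicates 4 to 6. The groups did not overlap, and the mean log2 ratio was 0.72 higher under the knockout label (-0.51 ± 0.29 against 0.21 ± 0.16, n = 3 each). All 28 pairs of members were compared in this way, and this was the single pair whose groups did not overlap (3.57%). Its two-sided exact permutation p of 0.1 is the smallest that 3 libraries against 3 can give, and it became 1 after Benjamini-Hochberg adjustment over the 28 pairs. The ratio was picked out after its values were seen. Exons of Kmt2a and Kmt2c overlap annotated opposite-strand exons over 2.24% and 1.63% of their bases, and the library kit does not mark strand.

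Kdm6b, the demethylase that erases the polycomb mark at lysine 27 and is induced by inflammatory signals, had the lowest median level per length and the widest span of the 8. It lies on chromosome 11 (69398518 to 69413675, minus strand) and has 6.64 kb of exon, 4.30% of which overlaps the opposite-strand gene Kdm6bos. Raw counts were 170, 65 and 471 in wild type and 127, 182 and 256 under the knockout label, that is 5.82, 2.49 and 14.8 CPM against 3.31, 4.75 and 8.04 CPM. Wild type held both the lowest and the highest library, 5.95-fold apart. The log2 fold change of -0.52 (SE 0.86, 95% interval -2.51 to 1.46) became 0.34 without wild-type replicate 3 and -0.96 without wild-type replicate 2. Kdm6a (UTX), the related demethylase of the Kmt2c and Kmt2d complexes, exceeded Kdm6b per kb in every library, from 2.98-fold in knockout-labelled replicate 6 to 15.4-fold in replicate 4.

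Men1, the gene of menin, spanned the narrowest range of the 8, with 1.32-fold between its highest and lowest library. It lies on chromosome 19 (6334979 to 6340894, plus strand) with 3.04 kb of exon. Its level was 202.7, 198.6 and 153.8 CPM in wild type and 199.8, 198.0 and 171.0 CPM in the knockout-labelled libraries, which overlapped fully. The means of 185 ± 27.1 and 189.6 ± 16.1 CPM gave a log2 fold change of 0.04 (SE 0.21, 95% interval -0.45 to 0.52). The ratio of Men1 to its partner Kmt2a per kb ranged from 12.6 in replicate 4, where Kmt2a was highest, to 38.9 in wild-type replicate 1.

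The core subunits Ash2l and Wdr5 were lower in all knockout-labelled libraries, and Rbbp5 was not. Ash2l, which stimulates the methyltransferases and lies on chromosome 8 (25816001 to 25847694, minus strand), had 162, 205 and 185 CPM in wild type and 130.1, 126.8 and 150.3 CPM under the knockout label. Every knockout-labelled library was below every wild-type library, the closest being 150.3 and 162 CPM. The means were 184 ± 21.5 and 136 ± 12.7 CPM, with a log2 fold change of -0.44 (SE 0.21, 95% interval -0.92 to 0.03), and an unadjusted p of 0.0650. Without replicate 6 the unadjusted p was 0.0446, with a log2 fold change of -0.52 and adjusted p = 0.375 by edgeR. At an unadjusted p below 0.05 that fit held 12.8% of all genes.

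Wdr5, the propeller protein that binds the tail of histone H3 and the methyltransferases, lies on chromosome 2 (27515147 to 27536538, plus strand). It had 154, 200.2 and 173 CPM in wild type and 109.7, 152.7 and 142.6 CPM under the knockout label. The separation was narrow, between 152.7 CPM in replicate 5 and 154 CPM in wild-type replicate 1. The log2 fold change was -0.38 (SE 0.23, 95% interval -0.90 to 0.14; adjusted p = 0.559, edgeR), and it was -0.25 without replicate 4. With the length trend removed, Ash2l and Wdr5 had log2 fold changes of -0.29 and -0.33 relative to the median of all genes. The values tested were those before this subtraction, -0.11 for Ash2l (SE 0.26) and -0.15 for Wdr5 (SE 0.23). Their adjusted p-values in that fit were 0.901 and 0.848 by edgeR.

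Rbbp5, which bridges the core to the catalytic subunit and lies on chromosome 1 (132477370 to 132505660, plus strand), was at 44.03, 65.3 and 81.0 CPM in wild type and at 82.1, 45.1 and 65.9 CPM under the knockout label. Both groups spanned the same range, and the log2 fold change was 0.02 (SE 0.34, 95% interval -0.75 to 0.79). The ratio of Ash2l to Rbbp5 per kb was 2.37 to 3.82 in wild type and 1.64 to 2.91 in the knockout-labelled libraries. Dpy30, the remaining core subunit, averaged 110.1 ± 30.9 and 113.8 ± 12.8 CPM (log2 fold change 0.05, SE 0.27).

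Genes of the G2 and M phases of the cell cycle were also lower under the knockout label, with all 24 listed genes fitted lower and a summed level of 3326 to 4895 CPM in wild type and 964 to 1946 CPM in knockout. Their part, and that of the progenitor markers, in the lower Ash2l and Wdr5 values was not tested. In such bulk libraries fewer cells of a type and less RNA per cell cannot be told apart.

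**Figure D4:**
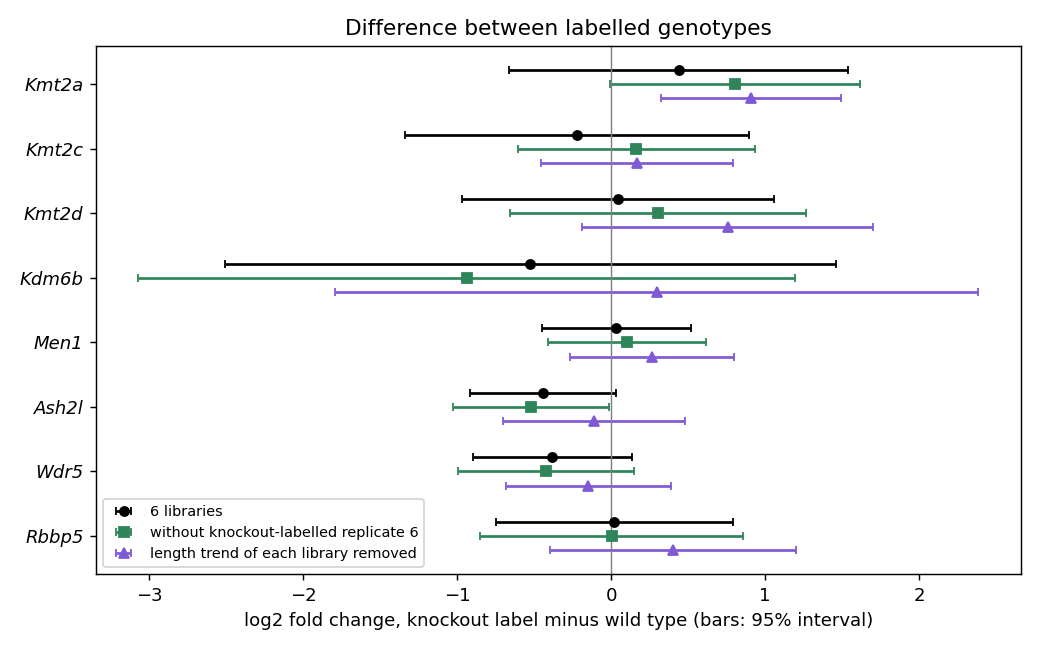
Log2 fold change of each gene, knockout label minus wild type, with 95% intervals, for all 6 libraries (black circles), without replicate 6 (green squares) and after removal of each library's length trend (purple triangles, not set relative to the median of all genes). With all 6 libraries every interval includes 0, and the interval of Kdm6b is the widest, from -2.51 to 1.46.

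The authors' deposited table gives its own comparison of Cre+ against Cre-, with an adjusted p of 1 for all 8 members. In the authors' deposited table the log2 fold change was -0.43 for Ash2l and -0.19 for Wdr5, negative as in the present fit. For 5 of the 8 members the sign in the authors' deposited table was opposite to that of the present fit. The authors' deposited table has -0.16 for Kmt2a and 0.37 for Kdm6b, where the present values were 0.44 and -0.52. For Kmt2d, Men1 and Rbbp5, which lay within 0.05 of 0 in the present fit, the authors' deposited table has -0.18, -0.03 and -0.12.

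Other subunits of COMPASS complexes were mostly fitted lower, and none passed the test. Of 18 tested, 15 were fitted lower and 3 higher (median log2 fold change -0.19). Paxip1, a subunit of the Kmt2c and Kmt2d complexes, averaged 122 ± 18.3 and 54.7 ± 29.7 CPM with groups that did not overlap (log2 fold change -1.15, SE 0.38, adjusted p = 0.278 by edgeR). That makes 1 of 18 separated lower and 0 higher, beside 11.3% and 10.1% of all tested genes. Kdm6a averaged 55.8 ± 38.1 and 28.7 ± 10.8 CPM, and Hcfc1, a host cell factor of the Setd1 and Kmt2a complexes, 90.5 ± 37.5 and 50.7 ± 18.8 CPM, both with overlapping groups. The median of this list was -0.50, -0.37 and -0.37 without knockout-labelled replicate 4, replicate 5 or wild-type replicate 1, and -0.08 without replicate 6.

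Of 23 other trithorax genes, mainly subunits of SWI/SNF remodelers, 16 were fitted lower and 7 higher (median -0.07, and between -0.29 without knockout-labelled replicate 4 and -0.10 without wild-type replicate 2), with 0 past the test. Smarcc1, a scaffold subunit of these remodelers, averaged 256 ± 64.9 and 158 ± 22.2 CPM without overlap (log2 fold change -0.69, SE 0.25). Smarcc2, its paralog, averaged 118 ± 49.3 and 70.9 ± 37.7 CPM. Smarcd3, an alternative subunit, had 19, 57 and 0 counts in wild type and 188, 318 and 186 counts under the knockout label, again without overlap (adjusted p = 0.552, edgeR). In this list 2 of 23 genes were separated lower and 1 higher, beside 11.3% and 10.1% of all tested genes.

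Among 28 polycomb genes 20 were fitted lower and 8 higher (median -0.13), and 0 passed. Suz12 and Ezh2, the scaffold and the enzyme of polycomb repressive complex 2, averaged 67.4 ± 11.8 and 28.0 ± 9.57 CPM, and 136 ± 4.09 and 64.6 ± 28.7 CPM. Pcgf3, a paralog of Pcgf2, averaged 14.4 ± 4.74 and 5.90 ± 0.452 CPM. Pcgf1, another paralog, was higher in every knockout-labelled library, at 11.8 ± 2.38 and 22.8 ± 2.08 CPM (adjusted p = 0.403 by edgeR), and was named after its values were seen. The groups of Suz12, Ezh2 and Pcgf3 did not overlap either, which makes 3 of 28 lower and 1 of 28 higher, beside 11.3% and 10.1% of all tested genes. Their adjusted p-values were 0.216, 0.276 and 0.401 by edgeR.

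The 6 genes of lysine 4 demethylation, which oppose the COMPASS methyltransferases, had a median log2 fold change of -0.33, with 4 fitted lower, 2 higher and 0 past the test. Without wild-type replicate 3 this median was 0.03. Kdm5b averaged 82.8 ± 34.8 and 136 ± 41.7 CPM, Kdm1a (LSD1) 152 ± 30.3 and 113 ± 8.48 CPM, and its corepressor partner Rcor1 94.9 ± 10.6 and 60.7 ± 44.8 CPM. The groups of Kdm1a alone did not overlap, which makes 1 of 6 lower and 0 higher, beside 11.3% and 10.1% of all tested genes.

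Target genes of Kmt2a in blood cells were mostly fitted higher, with 11 of 14 higher and 3 lower (median log2 fold change 0.54), and 0 passed the test. Hoxa10 had 702, 438 and 358 counts in wild type and 1667, 1778 and 2338 counts under the knockout label. Every knockout-labelled library was above every wild-type library (log2 fold change 1.65, SE 0.40, adjusted p = 0.169 by edgeR). In this list 3 of 14 genes, Mecom among them, were separated in this direction and 0 in the other, beside 10.1% and 11.3% of all tested genes. Meis1 averaged 238.5 ± 58.1 and 409 ± 97.4 CPM, and Mecom 32.4 ± 13.4 and 60.8 ± 22.9 CPM. Hoxa9, a long-studied target of Kmt2a, averaged 110.4 ± 28.1 and 104.8 ± 44.4 CPM (log2 fold change -0.08, SE 0.35). Meis1 and Mecom are also among the 17 stem cell markers, which were higher as a list, and the part of that shift in the target list was not tested.

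**Figure D5:**
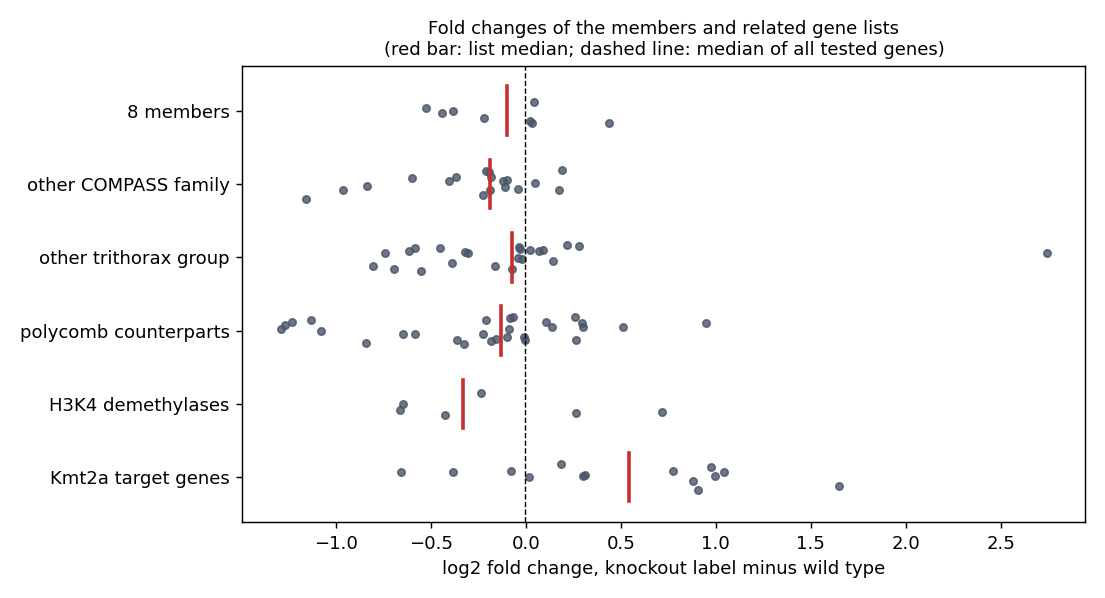
Log2 fold change (knockout label minus wild type) of every tested gene of the 8 members and of 5 related lists (points, spread vertically for legibility), with list medians as red bars and the median of all tested genes as a dashed line. The list medians lie between -0.33 and 0.54, and the far right point is Smarcd3.

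The gene most like each member was the one with the highest Pearson correlation of log2 CPM over the 6 libraries, out of 8377 candidates. With so many candidates and 6 points such values are a description. For Ash2l it was Nek2, a kinase of mitosis (r = 0.998), with 48.4, 98.5 and 76.8 CPM in wild type and 26.2, 24.6 and 42.1 CPM under the knockout label. Wdr5 was closest to Suv39h2, a methyltransferase of histone H3 lysine 9 (r = 0.989). Kmt2a was nearest to Prkch, a protein kinase C (r = 0.989), Kmt2c to Secisbp2l (r = 0.998) and Kmt2d to the unnamed gene D030028A08Rik (r = 0.996). The others were Rrp12, a ribosome assembly gene, for Kdm6b (r = 0.981), the mitochondrial ribosomal gene Mrpl48 for Men1 (r = 0.998) and the kinase gene Mast3 for Rbbp5 (r = 0.969).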

How the data were processed

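RNA was measured in 6 libraries made with the SMART-Seq v4 kit and Nextera XT, per the labels' protocols. The authors deposited raw counts per gene, log2 FPKM values, and the fold changes, log2 fold changes and p-values of their own comparison. The submitters' processing notes name mm10, edgeR 3.28.1, STAR 2.5, Trimmomatic 0.40, MultiQC 0.11.5 and FastQC. The sources used here do not state how reads mapping to several genes were handled or how genes were filtered. The listed gene length equals the merged exons for all 13935 genes.

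The deposited counts were tested in R 4.3.3 with edgeR 4.0.16: filterByExpr (minimum count 10), TMM factors, the robust quasi-likelihood test, two-sided, with Benjamini-Hochberg adjustment over all tested genes. A standard error is the log2 fold change divided by the square root of F, and intervals use the test's degrees of freedom. Log2 CPM values use a prior count of 2. Promoters came from RefSeq and overlaps from GENCODE M21, both on GRCm38. The fit was tried on simulated counts with changes larger than the fold changes of the members. It does not show how well changes as small as theirs would be found. Intervals cover the spread between libraries, and depth was 26469336 to 37180701 counts. Every pair of libraries differed by more than sampling noise (chi-square per degree of freedom at least 145).

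Alternatives were DESeq2 1.42.0, limma-voom 3.58.1, edgeR's likelihood ratio test, other scaling factors and count filters, leaving out each library, and, added after seeing the data, removal of each library's length trend. The members and the gene lists were chosen with earlier results of these data known. Named genes are the members, Pcgf2, Hoxa9, Meis1, in each related list the called genes (with fewer than 3, the 3 of smallest p), and the gene most correlated with each member (average log2 CPM at least 4). Dpy30 is named besides as the remaining core subunit.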

Additional observations from a re-analysis of the deposited data

How the results depend on the processing

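Of 120 recomputed member fold changes 107 kept their direction, 13 reversed and 0 passed the threshold. Ash2l and Wdr5 stayed lower and Kmt2a higher in all 15 alternatives, with log2 fold changes of -0.52 to -0.11, -0.50 to -0.15 and 0.12 to 0.91 and adjusted p-values of at least 0.375, 0.469 and 0.196 (edgeR, DESeq2 or limma). With the length trend removed Kmt2c reversed to 0.17 and Kdm6b to 0.30, before allowing for the shift of all genes, 7 genes were lower, and the list medians were 0.016 for polycomb genes, 0.025 for COMPASS subunits and 0.03 for other trithorax genes, all turned in sign but below the all-gene median of 0.18, and 0.27 for lysine 4 demethylation. Leaving out each library moved Kmt2c between -0.67 and 0.16, Kmt2d between -0.19 and 0.45, Kdm6b between -0.96 and 0.34, Men1 between -0.10 and 0.10, Rbbp5 between -0.19 and 0.22, the COMPASS median between -0.50 and -0.080, the polycomb median between -0.21 and -0.11 and that of lysine 4 demethylation between -0.56 and 0.035 (-0.13 with limma-voom). The number of all genes called, 2 higher and 16 lower in the main test, was 0 to 2 higher and 0 to 47 lower on leaving out a library, 25 lower without a count filter, 223 higher and 358 lower with DESeq2, 144 and 288 with the likelihood ratio test, and 0 with limma-voom (1775 at an unadjusted p below 0.05). Causes were not tested. Ranks by level were those of the authors' log2 FPKM. No paired analysis was made because the labels state no pairing of the mice. The limit on precision is the spread between 3 libraries a group: the 95% interval of Kdm6b, the widest, reached from -2.51 to 1.46 on the log2 scale.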
